A study of Mus musculus with 5 samples.

Results

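The nuclear-encoded genes of mitochondrial oxidative phosphorylation were followed in murine lung cancer-associated fibroblasts (CAFs) with and without ectopic miR-200. They were chosen by symbol: genes beginning with *Nduf* and a, b, c, s or v, the *Sdh* genes a to d, *Uqcr* genes, *Cox4* to *Cox8* genes and *Atp5* genes, protein-coding only. This gave 93 of the 21835 genes in the table, of which 88 were expressed highly enough to be tested. By complex they were 36 subunits of complex I, 4 of complex II, 8 of complex III, 20 of complex IV, 16 of complex V, 8 complex I assembly factors (*Ndufaf1* to *Ndufaf8*) and *Atp5s*, the coupling factor B of ATP synthase. *Ndufa4* and *Ndufa4l2* were counted with complex IV, of which the *Ndufa4* protein is a subunit.

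The study asked what restoring miR-200 does to CAFs, the fibroblasts of a tumor's stroma. CAF-200 (3 samples) were CAFs infected with a lentivirus carrying miR-200b/a/429 in a neomycin-resistance vector. CAF-vec (2 samples) carried the empty vector and are labelled as the wild-type control, whereas the methods describe RNA taken 3 times from each group. The CAFs of both groups came from lung and were grown in alpha-MEM with serum and pyruvate, and the labels describe G418 selection for more than 2 weeks. The methods differ from the labels, naming a hygromycin-resistance vector and another RNA extraction kit, and the labels were followed. No label says that the samples of a group came from separate cultures, so the *p* values measure the spread between these samples, which may be technical.

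Oxidative phosphorylation is carried by 5 complexes in the inner mitochondrial membrane. Complexes I to IV pass electrons from NADH and succinate through ubiquinone and cytochrome c to oxygen and, except for complex II, pump protons, and complex V uses the proton gradient to make ATP. Most subunits are encoded in the nucleus and imported, whereas a few, all hydrophobic, are encoded in mitochondrial DNA. Fibroblasts in tumors are known for shifts between glycolysis and respiration, which makes these genes a natural readout of their state, although mRNA does not measure respiration.

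The level of a gene is given in CPM, counts that the authors scaled to the same total in each library, and the read depth behind the values is unknown. Of 11 fibroblast markers, 10 were tested, while *Fap* stayed under 0.5 CPM in every sample. Their summed level was 14241 and 7583 CPM in the controls and between 7262 and 7963 CPM in CAF-200. Of these markers *Dcn*, *Lum*, *Thy1* and *Acta2* were higher in CAF-200 past both thresholds of the study (an adjusted *p* below 0.01 with a log2 ratio beyond 1), with log2 ratios of 2.75, 2.82, 1.46 and 2.63. *Col1a1*, *Col1a2* and *Pdgfrb* lay below both controls, with log2 ratios of -0.91, -0.75 and -0.25, and *Col3a1* lay above both, with 1.02, and none of these 4 passed. Without CAF-vec 1 the log2 ratios of *Col1a1*, *Col1a2*, *Pdgfrb* and *Col3a1* were -0.31, -0.24, -0.26 and 1.56, and 2 of the 10 markers were lower (background 26.8%) and 5 were higher (20.4%) at an adjusted *p* under 0.05. The part of these shifts in the results for oxidative phosphorylation was not tested. None of 8 epithelial markers reached the level for testing, and their summed level was 0.0843 and 0.228 CPM in the controls and between 0.0335 and 0.452 CPM in CAF-200. The summed level of 8 muscle markers was 0.343 to 0.880 CPM over the 5 samples. That of 7 immune markers was 7.23 and 7.41 CPM in the controls and between 4.73 and 5.99 CPM in CAF-200, and that of 6 endothelial markers was 3.37 and 1.98 CPM in the controls and between 0.902 and 1.12 CPM in CAF-200. Both sums were lower in every CAF-200 sample than in either control. Their part in the results was not tested. In the controls most of the endothelial sum was *Kdr*, at 2.31 and 1.82 CPM, against 0.690, 0.612 and 0.405 CPM in CAF-200. *Kdr* was lower in CAF-200 (log2 ratio -1.26, limma adjusted *p* = 0.00807). The paper reports *Kdr* in CAFs and its decrease with miR-200, so the endothelial sum cannot tell endothelial cells from CAFs. *Cd68* and *Csf1r* made up nearly all of the immune sum, and in each the groups overlapped. At 0 in all samples were 6 of the muscle, 3 of the immune, 1 of the endothelial and 3 of the epithelial markers. *Zeb1*, a well-known target of miR-200, was 43.5 and 50.7 CPM in CAF-vec and 37.8, 37.5 and 34.1 CPM in CAF-200, with no overlap (log2 ratio -0.36, limma adjusted *p* = 0.0504, and -0.47 without CAF-vec 1). The miR-200 RNAs themselves were not analysed here.

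One library stood apart. In CAF-vec 1, 72 of the 88 tested genes of oxidative phosphorylation (81.8%) lay outside the range of the other 4 samples, 33 below it and 39 above it, against 68.9% of all 12175 genes tested. The share was similar in genes of mitochondrial (83.3%) and cytosolic (86.2%) ribosomal proteins. CAF-vec 2 lay within the range of the CAF-200 samples for 28 of the 88 genes (31.8%, against 15.9% of all genes). The SD of the log2 difference between the CAF-vec samples was 0.66 over the 88 genes and 0.49 over all genes tested, whereas pairs of CAF-200 samples gave 0.17 to 0.19 over the 88 genes. The CAF-vec samples differed by more than 1 log2 unit in 11 of the 88 genes (12.5%, background 4.1%). This share was 3.85% in genes of mitochondrial and 13.8% in genes of cytosolic ribosomal proteins. For 63 of the 88 genes the CAF-vec samples differed from each other by more than the group means did, a count given without its share over all genes. Results are therefore also given without CAF-vec 1. In such a comparison CAF-vec 2 is the lone control, and it is assumed to vary like the CAF-200 samples.

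Few of these genes differed between the groups. At an adjusted *p* under 0.05 (limma, Benjamini-Hochberg over the 12175 genes), 12 of 88 passed (13.6%, against 30.5% of all genes tested). Of these, 6 were lower in CAF-200 (background 18.6%) and 6 were higher (background 11.9%). The genes that fell were *Ndufaf3*, *Ndufs7*, *Atp5e*, *Atp5d*, *Cox7a2l* and *Ndufa11*, and the genes that rose were *Ndufs4*, *Ndufab1*, *Cox5a*, *Ndufaf2*, *Ndufaf4* and *Cox7b*. Under quantile normalization 4 were lower and 7 higher, after centring on sample medians 4 and 8, and after rescaling without mitochondrially encoded genes 4 and 7, and *Cox7a2l* and *Ndufa11* no longer passed under any of these scalings. None passed the study's thresholds of both a log2 ratio beyond 1 and an adjusted *p* under 0.01, against 4.72% of all genes, and at an unadjusted *p* under 0.05 there were 16 lower (background 27.6%) and 14 higher (background 17.3%). Log2 ratios (CAF-200 mean minus CAF-vec mean) are on the log2(CPM + 0.5) scale, which understates the change of low genes, and their median was -0.021 for the 88 genes (0.031 to 0.076 under 3 other scalings) and -0.094 for all genes tested. In bulk RNA, fewer cells with a transcript and less of it in each cell cannot be told apart. They ran from -0.79 for *Cox6a1* to 1.35 for *Atp5o*.

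In each of the 12 genes the groups did not overlap, so that the direction was the same against either CAF-vec sample alone. With 1 CAF-200 sample left out, all 12 kept their sign and at least 11 had an unadjusted *p* under 0.05. However, none passed after adjustment, the lowest adjusted *p* values being 0.0533, 0.0515 and 0.0552 without CAF-200 1, 2 and 3 (limma). Calls over all genes fell as well, to 10.4%, 8.94% and 7.59%. Without CAF-vec 1, 30 of 88 genes passed (34.1%, background 47.2%), 13 lower (background 26.8%) and 17 higher (20.4%, *Cox6b2* and *Cox7a1* included, which were tested there through CAF-200 alone), none past both thresholds of the study (5.36%). Without CAF-vec 2, 64 passed (72.7%, background 64.8%), 31 lower (39.6%) and 33 higher (25.3%), and 13 were past both thresholds (12.7%). The 2 comparisons share the CAF-200 samples. Of the 88 genes, 42 had groups that did not overlap (47.7%, background 61.6%), 20 with CAF-200 lower (37.3%) and 22 with CAF-200 higher (24.3%).

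**Figure D1:**
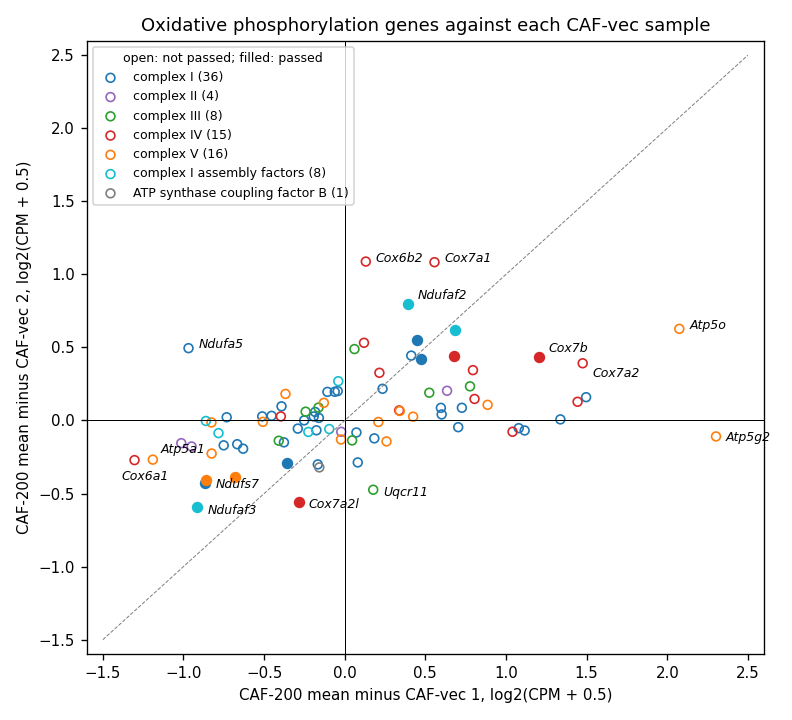
Each point is 1 of the 88 tested genes, with the CAF-200 mean minus CAF-vec 1 on the x axis and minus CAF-vec 2 on the y axis, both in log2(CPM + 0.5). Colors give the complex, filled points are the 12 genes that passed, and the dashed line marks equal differences. The spread is wider along the x axis, and 30 genes have opposite signs on the axes, a count given without its share over all genes.

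Complex I, the NADH dehydrogenase, takes electrons from NADH and is the largest complex of the chain. Of its 36 nuclear-encoded subunits, 2 fell and 2 rose (11.1% passed, background 30.5%), with a median log2 ratio of -0.067 that turned to 0.02 without CAF-vec 1 and to 0.038 after quantile normalization. *Ndufs7* (ENSMUSG00000020153, chr10:80249121-80256794, plus strand), a core subunit with an iron-sulfur cluster near the ubiquinone site, was 224 and 165 CPM in CAF-vec and 132, 119 and 119 CPM in CAF-200. Every CAF-200 sample was below both controls, and CAF-vec 1 was the highest. Mean levels were 194.7 ± 41.6 (SD, n = 2) and 123.0 ± 7.40 CPM (SD, n = 3), for a log2 ratio of -0.65 (SE 0.149, limma adjusted *p* = 0.0255) and of -0.43 without CAF-vec 1. *Ndufa11*, an accessory subunit of the membrane arm, was 264 and 251 CPM against 201, 217 and 198 CPM, so its groups did not overlap and its controls were close (log2 ratio -0.33, SE 0.0924, limma adjusted *p* = 0.0459). It did not pass under the same 3 other scalings (limma adjusted *p* = 0.0664 to 0.108).

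The complex I genes that rose were *Ndufab1* and *Ndufs4*. *Ndufab1* (ENSMUSG00000030869, chr7:122085403-122101886, minus strand), the mitochondrial acyl carrier protein, which also serves fatty acid synthesis in the matrix, was 132 and 123 CPM in CAF-vec and 178, 174 and 189 CPM in CAF-200. Here the controls differed little and all CAF-200 samples lay above them. Mean levels were 127.5 ± 6.38 (SD, n = 2) and 180.2 ± 7.5 CPM (SD, n = 3), for a log2 ratio of 0.50 (SE 0.0898, limma adjusted *p* = 0.0132). *Ndufs4*, an accessory subunit of the NADH-oxidizing module whose loss causes Leigh-like disease, was 74 and 77 CPM against 102, 90.8 and 119 CPM, without overlap. Its log2 ratio was 0.45 (SE 0.131, limma adjusted *p* = 0.0495). Since 2 other annotated genes share at least 150 bases with *Ndufab1* at 95% identity or more, its reads could be split among them.

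Within complex I, the 7 core subunits had a median log2 ratio of -0.24 (-0.16 without CAF-vec 1), and *Ndufs7* alone passed. A value below 0 was found in 6 of 7, against 7097 of the 12175 genes tested. Of 11 subunits of the NADH-oxidizing module and the matrix arm around it, 2 rose and none fell (18.2%, background 30.5%). None of the 10 *Ndufb* subunits, which sit in the membrane arm, passed, and their log2 ratios were between -0.36 and 0.51. In all 10 of them, CAF-vec 1 was outside the range of the other 4 samples.

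The largest positive values in complex I were those of genes low in CAF-vec 1. *Ndufa3*, a small membrane-arm subunit, was 68.0 and 173 CPM in CAF-vec and 169, 203 and 210 CPM in CAF-200. *Ndufa12*, which lies near the NADH-oxidizing module, was 91.0 and 229 CPM in CAF-vec and 214, 246 and 233 CPM in CAF-200. In both genes CAF-vec 2 fell inside the CAF-200 range, and the log2 ratios of 0.83 and 0.67 became 0.16 and 0.0075 without CAF-vec 1. *Ndufa5* was 390 and 141 CPM in CAF-vec and 243, 171 and 189 CPM in CAF-200, so that all CAF-200 samples lay between the controls.

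Of the 8 complex I assembly factors matched by symbol, 3 passed (37.5%, background 30.5%). They help build complex I and are not part of the finished enzyme. *Ndufaf3* (ENSMUSG00000070283, chr9:108565537-108567434, minus strand), a factor for the early ubiquinone module, was 19.2 and 15.3 CPM in CAF-vec and 9.72, 10.2 and 9.99 CPM in CAF-200. The CAF-200 samples were tightly grouped below both controls. Mean levels were 17.2 ± 2.79 (SD, n = 2) and 9.97 ± 0.233 CPM (SD, n = 3), for a log2 ratio of -0.75 (SE 0.123, limma adjusted *p* = 0.0102), and it was -0.59 without CAF-vec 1. The gene overlaps *Impdh2* on the other strand. The library kit keeps strand, but the strand setting of the counting is not given in the sources used here.

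*Ndufaf4* (ENSMUSG00000028261, chr4:24898083-24905001, plus strand), which works together with *Ndufaf3* in assembly, moved the other way. It was 10.2 and 10.7 CPM in CAF-vec and 18.5, 15.8 and 15.9 CPM in CAF-200, with all CAF-200 samples above 2 nearly equal controls (log2 ratio 0.65, SE 0.109, limma adjusted *p* = 0.0106). *Ndufaf2*, a late-acting paralog of *Ndufa12*, was 36.0 and 27.1 CPM in CAF-vec and 46.4, 46.8 and 49.1 CPM in CAF-200. Its log2 ratio was 0.59 (SE 0.136, limma adjusted *p* = 0.0249), and 0.80 without CAF-vec 1. The other 5 factors had log2 ratios from -0.43 to 0.11 and did not pass. Without CAF-vec 1 these ratios ran from -0.086 for *Ndufaf8* to 0.27 for *Ndufaf5*.

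**Figure D2:**
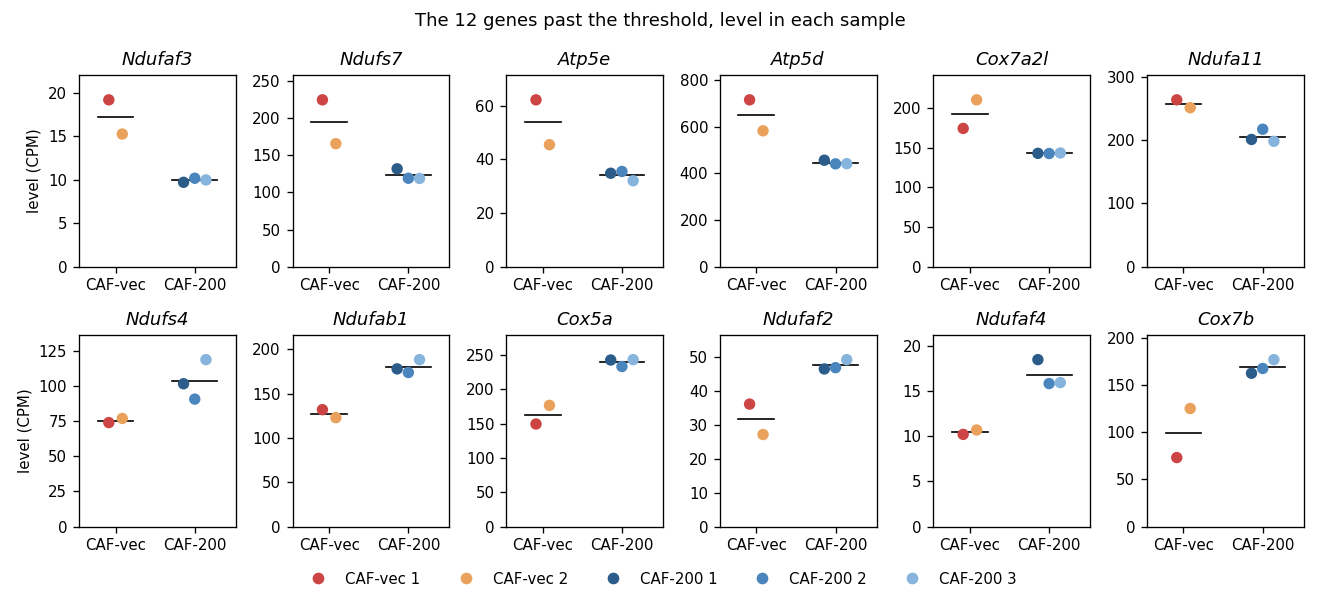
Level in CPM, on a linear axis from 0, of the 12 genes that passed in each CAF-vec sample (red, orange) and CAF-200 sample (blues), with a line at each group mean. In every panel all 3 CAF-200 samples lie on the same side of both CAF-vec samples, and for *Ndufs7*, *Atp5e* and *Cox7b* the CAF-vec samples are the farthest apart on the log2 scale.

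Complex II, succinate dehydrogenase, is the enzyme shared with the citrate cycle, and its 4 subunits are all nuclear. None passed with all 5 samples. *Sdha*, the flavoprotein that oxidizes succinate, was 118 and 122 CPM in CAF-vec and 109, 129 and 111 CPM in CAF-200, and the groups overlapped (log2 ratio -0.05). *Sdhb*, the iron-sulfur subunit, was 117 and 68.3 CPM in CAF-vec and 63.7, 59.0 and 58.4 CPM in CAF-200, with CAF-vec 1 far above the rest. Its log2 ratio of -0.56 (limma adjusted *p* = 0.107) was -0.18 without CAF-vec 1. The membrane anchors differed from each other. *Sdhc* was 348 and 192 CPM against 200, 157 and 163 CPM (log2 ratio -0.58, and -0.16 without CAF-vec 1). *Sdhd* was 63.4 and 85.6 CPM against 96.6, 98.8 and 100 CPM, the one gene of complex II with CAF-200 above both controls (log2 ratio 0.42, limma adjusted *p* = 0.0704, and 0.20 without CAF-vec 1).

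Complex III, the cytochrome bc1 complex, hands electrons from ubiquinol to cytochrome c, and none of its 8 nuclear genes here passed. *Uqcrq*, a small subunit bound to cytochrome b, was 167 and 244 CPM in CAF-vec and 291, 300 and 270.0 CPM in CAF-200 (log2 ratio 0.51, limma adjusted *p* = 0.0753). *Uqcr10* was 207 and 261 CPM against 288, 315 and 290 CPM (log2 ratio 0.36). Both had CAF-200 above both controls. *Uqcrh*, the hinge protein for cytochrome c1, was 273 and 226 CPM in CAF-vec and 202, 209 and 204 CPM in CAF-200, below both controls (log2 ratio -0.27). *Uqcr11* was 365 and 573 CPM in CAF-vec and 392, 466 and 384 CPM in CAF-200, so that the CAF-200 samples lay between the controls, with a log2 ratio of -0.15 that was -0.47 without CAF-vec 1 and 0.18 without CAF-vec 2. Without CAF-vec 1, 1 gene of the complex was lower (background 26.8%) and 2 were higher (20.4%), and the log2 ratios of *Uqcrq*, *Uqcr10* and *Uqcrh* were 0.23, 0.19 and -0.14.

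Complex IV, cytochrome c oxidase, passes electrons to oxygen. Of its 20 nuclear genes 15 were tested, and 2 rose and 1 fell (20% passed, background 30.5%). A log2 ratio above 0 was found in 12 of the 15, against 5078 of the 12175 genes tested. The median was 0.48 (0.50 to 0.58 under 3 other scalings), or 0.33 without CAF-vec 1, against -0.094 and -0.06 for all genes tested, and 2 of the 15 were lower (background 26.8%) and 6 higher (20.4%) without that sample. *Cox6b2* reached the level for testing through CAF-200 alone, and so did *Cox7a1* without CAF-vec 1. With both left out, a choice made after seeing the data, 10 of 13 genes were above 0 with a median of 0.48, and without CAF-vec 1 the median was 0.15, with 2 genes lower and 4 higher. *Cox5a* (ENSMUSG00000000088, chr9:57521274-57532426, plus strand), a matrix-side subunit needed early in assembly, was 149 and 177 CPM in CAF-vec and 243, 233 and 243 CPM in CAF-200. All CAF-200 samples were above both controls. Mean levels were 163.0 ± 19.2 (SD, n = 2) and 239.7 ± 5.64 CPM (SD, n = 3), for a log2 ratio of 0.56 (SE 0.105, limma adjusted *p* = 0.0147) and of 0.44 without CAF-vec 1. *Cox7b*, a small membrane subunit encoded on the X chromosome, was 73.2 and 125 CPM in CAF-vec and 163, 168 and 177 CPM in CAF-200. Its log2 ratio was 0.82 (SE 0.225, limma adjusted *p* = 0.042) and 0.43 without CAF-vec 1, and 2 similar genes are annotated.

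*Cox7a2l* (ENSMUSG00000024248, chr17:83501918-83517330, minus strand) was the gene of complex IV that fell. Its protein is related to *Cox7a* and is known for joining complexes III and IV into supercomplexes. It was 175 and 211 CPM in CAF-vec and 143, 143 and 144 CPM in CAF-200, a log2 ratio of -0.42 (SE 0.108, limma adjusted *p* = 0.0347) and of -0.56 without CAF-vec 1. Every CAF-200 sample was below both controls. The call was lost under 3 other scalings, with limma adjusted *p* values of 0.156 (quantile normalization), 0.0951 (centring on sample medians) and 0.0784 (without mitochondrially encoded genes). The log2 ratio stayed below 0 there, at -0.32, -0.32 and -0.37. *Cox6a1*, which had the largest fall among the 88 genes, was 1516 and 741 CPM in CAF-vec and 637, 612 and 594 CPM in CAF-200. The groups did not overlap, but its value rested mainly on CAF-vec 1: the log2 ratio was -0.79 (limma adjusted *p* = 0.0938) and -0.27 without it.

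Among the paralogs of complex IV, the tissue-restricted forms were near 0, such as *Cox6a2*, *Cox7a1* and *Cox8b* of heart and skeletal muscle, *Cox6b2* of testis and *Cox4i2* of lung. *Cox6a2*, *Cox6b2* and *Cox7a1* were at most 1.59, 0.681 and 1.43 CPM. *Cox8b* and *Cox8c* were listed at 0 in all samples, and *Cox4i2*, *Cox7b2* and *Ndufa4l2* stayed under 0.5 CPM, so that these 5 genes were not tested. *Cox6a2*, *Cox6b2* and *Cox7a1* did not pass with all 5 samples. Without CAF-vec 1 the remaining control was at 0 CPM for *Cox6b2* and 0.228 CPM for *Cox7a1*, too low for a comparison. The ubiquitous forms carried the signal, as *Cox4i1* at 985 and 734 CPM in CAF-vec and 724, 808 and 716 CPM in CAF-200 (log2 ratio -0.18). Of the others, *Cox8a* was 261 and 567 CPM against 521, 558 and 534 CPM, *Cox6b1* was 522 and 392 CPM against 496, 598 and 615 CPM, and *Ndufa4* was 311 and 491 CPM against 512, 538 and 585 CPM. *Cox8a* and *Ndufa4* were lowest in CAF-vec 1 and *Cox6b1* in CAF-vec 2, and none of these 4 passed.

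The Cox7a family was divided differently in the groups. *Cox7a2*, the ubiquitous form, was 40.7 and 86.8 CPM in CAF-vec and 115, 113 and 115 CPM in CAF-200 (log2 ratio 0.93, limma adjusted *p* = 0.0647), and its log2 ratio without CAF-vec 1 was 0.39. On CPM per kilobase of transcript, a scale on which genes can be compared, *Cox7a2l* made up 71.5% and 59.1% of the family in CAF-vec and 42.3%, 42.9% and 42.4% in CAF-200. *Cox7a2* made up 27.9% and 40.7% in the controls and between 56.6% and 56.7% in CAF-200. Thus on this scale *Cox7a2l* was the larger part in both controls and *Cox7a2* in all CAF-200 samples, while the controls differed from each other by more than the CAF-200 samples did. Which gene is larger depends on the lengths used, medians of annotated transcripts of 1102.5 bases for *Cox7a2l* and 659 for *Cox7a2*. In CPM, *Cox7a2l* was above *Cox7a2* in every sample, at 143, 143 and 144 CPM in CAF-200. *Cox7a1* was at most 1.06% of the family in any sample.

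Complex V, the ATP synthase, holds the catalytic F1 head with its central stalk, the rotating ring of c subunits and the outer stalk with the membrane part. Of its 16 nuclear genes, 2 fell and none rose (12.5% passed, background 30.5%), and both belong to the F1 head. *Atp5d* (ENSMUSG00000003072, chr10:80138632-80145818, plus strand), the delta subunit of the central stalk, was 715 and 582 CPM in CAF-vec and 456, 441 and 441 CPM in CAF-200. All CAF-200 samples lay below both controls. Mean levels were 648.6 ± 93.8 (SD, n = 2) and 446.1 ± 8.79 CPM (SD, n = 3), for a log2 ratio of -0.53 (SE 0.122, limma adjusted *p* = 0.0252) and of -0.38 without CAF-vec 1. *Atp5e* (ENSMUSG00000016252, chr2:174461072-174464105, minus strand), the epsilon subunit that binds next to delta, was 62.2 and 45.5 CPM in CAF-vec and 34.8, 35.5 and 32.0 CPM in CAF-200. Its log2 ratio was -0.63 (SE 0.149, limma adjusted *p* = 0.0269) and -0.41 without CAF-vec 1.

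The alpha and beta subunits of the head had CAF-200 values below both controls but did not pass. *Atp5a1*, the alpha subunit, was 1324 and 699 CPM in CAF-vec and 602, 579 and 561 CPM in CAF-200, where CAF-vec 1 was far above all others (log2 ratio -0.73, limma adjusted *p* = 0.0889, and -0.27 without CAF-vec 1). *Atp5b*, the catalytic beta subunit, had the highest mean level of the 88 genes, with 3876 and 2558 CPM in CAF-vec and 2183, 2353 and 2037 CPM in CAF-200 (log2 ratio -0.53, limma adjusted *p* = 0.111, and -0.23 without CAF-vec 1). *Atp5c1*, the gamma subunit, had overlapping groups, at 208 and 242 CPM against 243, 246 and 233 CPM. The 5 genes of the head had a median log2 ratio of -0.53, and -0.27 without CAF-vec 1, with 3 lower in that comparison (background 26.8%).

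The 3 genes for subunit c encode the same mature protein. *Atp5g2* was 64.0 CPM in CAF-vec 1 and 342 CPM in CAF-vec 2, next to 290.3, 349 and 316 CPM in CAF-200. Only CAF-vec 1 was apart, and the log2 ratio of 1.10 (SE 0.658, limma adjusted *p* = 0.243) was -0.11 without it. *Atp5g3* was 467 and 392 CPM in CAF-vec and 430, 423 and 427 CPM in CAF-200, with a log2 ratio of -0.0043, and *Atp5g1* was 185 and 224 CPM in CAF-vec and 232, 225 and 245 CPM in CAF-200. Per kilobase, *Atp5g2* was 11.5% of the 3 genes in CAF-vec 1, 44.3% in CAF-vec 2 and between 38.3% and 43.2% in CAF-200. None of the 8 genes of the stalk and membrane part passed with all 5 samples. *Atp5o* had the largest positive value of all 88 genes, at 10.4 and 29.2 CPM in CAF-vec and 39.0, 43.0 and 55.6 CPM in CAF-200 (log2 ratio 1.35, limma adjusted *p* = 0.0589, and 0.63 without CAF-vec 1). The *Atp5o* gene tested (ENSMUSG00000116933, chr16:91684398-91926982, minus strand) overlaps a second *Atp5o* gene, *Donson* and *Cryzl1* on the same strand and shares transcript sequence with other genes, so its level is uncertain. *Atp5s* was 26.5 and 29.8 CPM in CAF-vec and 23.2, 25.1 and 23.0 CPM in CAF-200 and did not pass (log2 ratio -0.24).

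**Figure D3:**
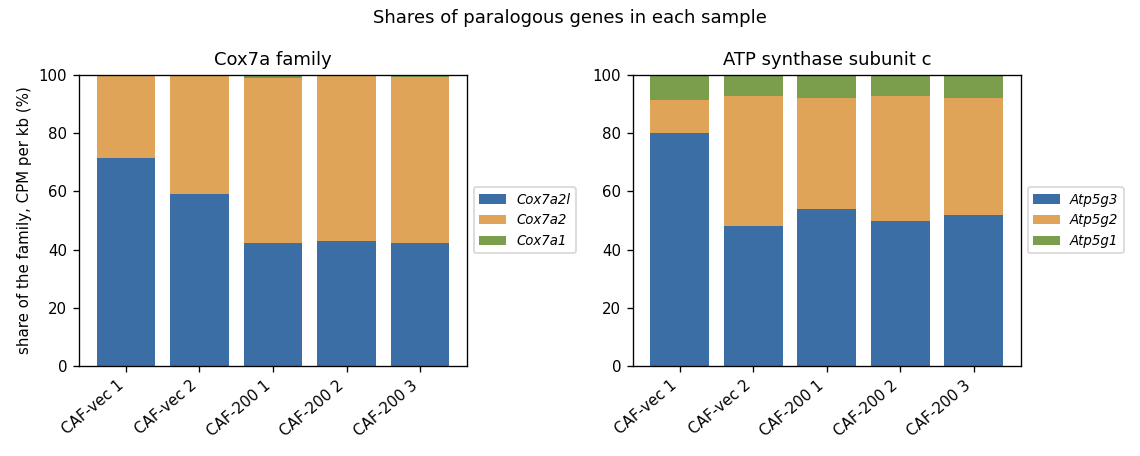
Bars show how CPM per kilobase of transcript was divided, in percent, among the 3 Cox7a genes (left) and the 3 genes of ATP synthase subunit c (right) in each of the 5 samples. On this scale, which depends on the transcript lengths used, *Cox7a2l* is the larger part in the CAF-vec samples and *Cox7a2* in CAF-200. For subunit c, CAF-vec 1 alone differs, with 11.5% *Atp5g2*.

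The levels were also summed over the genes of each complex. Complex I summed to 5638 and 5248 CPM in CAF-vec and 5386, 5382 and 5276 CPM in CAF-200 (*p* = 0.8, exact permutation test, two-sided). Complex III summed to 1622 and 1808 CPM against 1785, 1875 and 1725 CPM (*p* = 0.6), and complex IV to 4840.5 and 4711 CPM against 4821, 5136 and 5071 CPM (*p* = 0.4, exact permutation tests). In these complexes the groups overlapped. Complex II summed to 646 and 468 CPM against 469, 444 and 433 CPM (*p* = 0.4, exact permutation test), with CAF-vec 1 apart from the other samples. Only complex V had CAF-200 below both controls, with 9635 and 7628 CPM against 6972, 7248 and 6794 CPM (*p* = 0.2, exact permutation test). With 2 samples against 3, 0.2 is the smallest value this test can give. The F1 head alone summed to 6186 and 4127 CPM in CAF-vec and 3520, 3654 and 3304 CPM in CAF-200. All 93 genes together made up 2.26% and 2.00% of the CPM in CAF-vec and 1.96%, 2.03% and 1.95% in CAF-200.

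**Figure D4:**
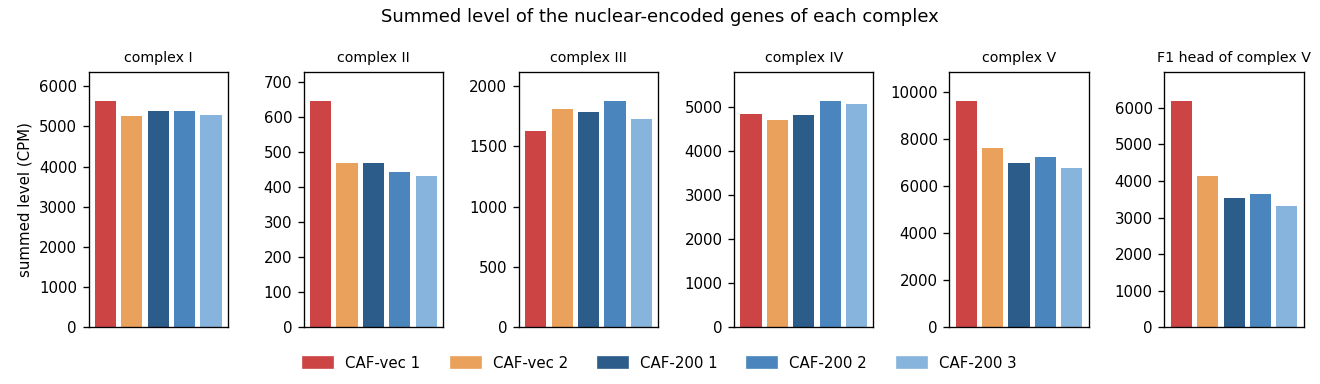
Summed level in CPM, on axes from 0 with their own scales, of the nuclear-encoded genes of complexes I to V and of the F1 head of complex V, 1 bar for each of the 5 samples. The CAF-200 bars lie below both CAF-vec bars for complex V and its F1 head, and CAF-vec 1 (red) is the highest bar in complexes I, II and V.

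The 13 subunits encoded in mitochondrial DNA, which join the nuclear-encoded subunits in complexes I, III, IV and V, separated 1 library and not the groups. Their summed level was 13440 CPM in CAF-vec 1 and 91136 CPM in CAF-vec 2, and 77431, 91322 and 92173 CPM in CAF-200. CAF-vec 1 held 1.34% of its CPM in these genes and the other 4 samples 7.74% to 9.22%. In 12 of the 13 genes CAF-vec 1 was below each other sample, and the exception was *mt-Nd6*, the gene on the other strand of the genome, at 109 and 123 CPM in CAF-vec and 87.4, 251 and 300 CPM in CAF-200. None of the 13 had an adjusted or unadjusted *p* under 0.05 (limma), and their median log2 ratio of 1.3 was -0.12 without CAF-vec 1 and 2.70 without CAF-vec 2 (sum over the 13 genes, *p* = 0.4, exact permutation test). The largest ratio between the CAF-vec samples was that of *mt-Nd4l*, at 215 CPM in CAF-vec 1 and 5041 CPM in CAF-vec 2. The ratio of mitochondrially to nuclear-encoded CPM was 0.595 and 4.55 in CAF-vec and 3.95, 4.50 and 4.73 in CAF-200. The low mitochondrial RNA and the position of CAF-vec 1 in the nuclear genes occur in the same library, and the part of the first in the second was not tested. 

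**Figure D5:**
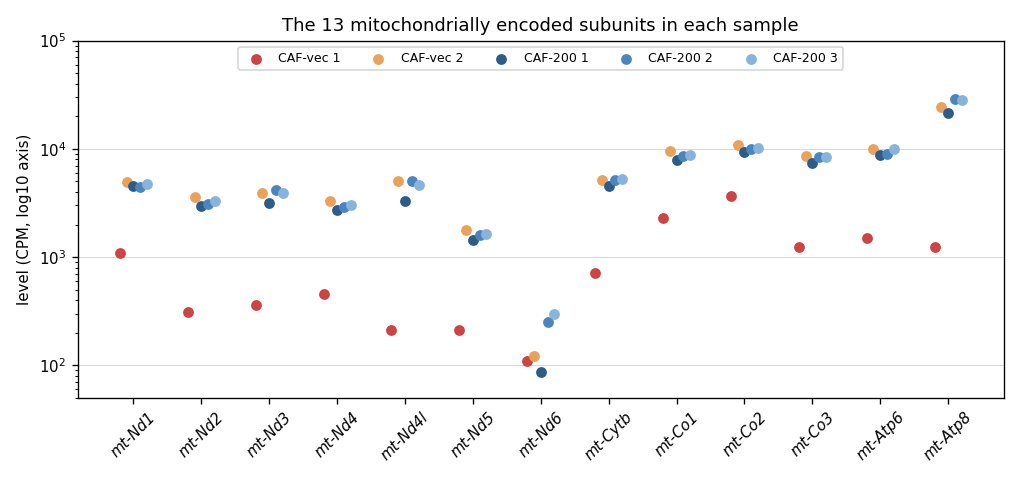
Level in CPM, on a log10 axis, of the 13 mitochondrially encoded subunits in each of the 5 samples. CAF-vec 1 (red) lies below the other 4 samples in every gene but *mt-Nd6*, whereas CAF-vec 2 (orange) lies among or close to the CAF-200 samples (blues).

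Other genes of respiration were set beside these complexes. *Cycs*, the mobile electron carrier between complexes III and IV, was 37.7 and 54.7 CPM in CAF-vec and 90.1, 93 and 97.7 CPM in CAF-200, so that every CAF-200 sample was above both controls. Mean levels were 46.2 ± 12 (SD, n = 2) and 93.6 ± 3.83 CPM (SD, n = 3), for a log2 ratio of 1.03 (SE 0.165, limma adjusted *p* = 0.00951), past both thresholds of the study, and 0.77 without CAF-vec 1. *Cyc1*, the cytochrome c1 of complex III, did not pass with all 5 samples (log2 ratio 0.16, and 0.28 without CAF-vec 1). Of 40 assembly factors outside the symbol rule, 1 fell and 2 rose (7.5%, background 30.5%). The largest rise was that of *Lyrm7*, a complex III factor (log2 ratio 0.89, limma adjusted *p* = 0.0367, and 0.58 without CAF-vec 1). Its level was low, at 0.655 and 1.28 CPM in CAF-vec and 2.55, 1.81 and 2.18 CPM in CAF-200.

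Of 15 genes for mitochondrial biogenesis and mitochondrial DNA expression, 3 fell and 2 rose (33.3%, background 30.5%). *Polrmt*, the RNA polymerase of mitochondria, was 64.6 and 42.9 CPM in CAF-vec and 29.8, 26.7 and 29.7 CPM in CAF-200, all below both controls (log2 ratio -0.86, SE 0.182, limma adjusted *p* = 0.0196, and -0.57 without CAF-vec 1). The others that fell were the coactivators *Ppargc1a* and *Ppargc1b*, at most 1.78 and 0.609 CPM in any sample, of which *Ppargc1b* reached the level for testing in CAF-vec alone and was not tested without CAF-vec 1, and those that rose were *Gabpb1* and *Pprc1*. Of 17 genes of pyruvate dehydrogenase and the citrate cycle, 2 fell and 1 rose (17.6%, background 30.5%). *Pdhb*, the beta subunit of pyruvate dehydrogenase, was 61.8 and 58.1 CPM in CAF-vec and 38.7, 38.0 and 38.9 CPM in CAF-200 (log2 ratio -0.63, SE 0.0807, limma adjusted *p* = 0.00575). *Idh3a*, a subunit of the NAD-dependent isocitrate dehydrogenase, rose from 48.1 and 58.4 CPM to 82.5, 78.4 and 85.3 CPM (log2 ratio 0.62, limma adjusted *p* = 0.0128). In both genes the groups did not overlap.

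Base composition moved with the fold-change. Across the 88 genes, Spearman's rho between the log2 ratio and the GC content of the transcript was -0.34, against -0.30 across 12119 genes tested with an annotated transcript. The points share their libraries and are not independent, so no *p* is given. Without CAF-vec 1, rho was -0.37 across the 88 genes and -0.19 across 11976 genes tested. The difference between the CAF-vec samples had a rho of -0.20 with GC content in the 88 genes and of -0.28 across all genes. The 44 genes with the lower GC content had a median log2 ratio of 0.11 and the 44 with the higher one of -0.093, or 0.067 and -0.031 without CAF-vec 1. Among the 12 genes that passed, *Atp5d*, *Ndufs7* and *Ndufa11* have 61.1%, 60.1% and 58.2% GC, and *Cox7b*, *Ndufaf4* and *Ndufs4* have 42.0%, 42.3% and 44%. The part of GC content in the result was not tested.

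The overexpressed miRNAs are shown because their seeds (bases 2 to 8, in capitals) define which 3′-UTRs they can pair with. All 3 lie on mouse chromosome 4, minus strand (RefSeq, GRCm38.p6), and miR-200b and miR-429 share a seed that differs from that of miR-200a.
miR-200a-3p: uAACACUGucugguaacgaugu
miR-200b-3p: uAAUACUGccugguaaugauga
miR-429-3p: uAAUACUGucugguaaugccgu

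Seed matches were rare in the genes of oxidative phosphorylation. In the longest annotated 3′-UTR (GENCODE M21, transcript strand), 4 of 87 tested genes (4.60%) held CAGTGTT, the match to miR-200a, or CAGTATT, the match to miR-200b and miR-429, against 30.3% of 12060 genes tested. Their 3′-UTRs were short, with a median of 235 bases against 1174, and they held 0.138 matches per kilobase against 0.281. The 4 genes with a match are shown, with the match in capitals inside the 3′-UTR, because they are the ones that the seeds could pair with. The first 2 hold the match to miR-200a and the others that to miR-200b and miR-429.
Atp5g2: gccactaactCAGTGTTgttacttttt
Ndufab1: cctataacccCAGTGTTaggagattga
Ndufc1: ttcaaaattaCAGTATTtgagattaga
Ndufb2, the first of 3 matches: tcaatcttcaCAGTATTatttctgttt

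None of these 4 genes fell in CAF-200. *Ndufab1* rose, as given above. *Ndufc1*, a membrane-arm subunit, was 105 and 102 CPM in CAF-vec and 150.1, 119 and 151 CPM in CAF-200, above both controls (log2 ratio 0.43, limma adjusted *p* = 0.0568). *Ndufb2* was 80.0 and 125 CPM in CAF-vec and 130, 142 and 127 CPM in CAF-200 (log2 ratio 0.41, limma adjusted *p* = 0.16, and 0.087 without CAF-vec 1), and its annotated 3′-UTR of 4012 bases overlaps other genes. *Atp5g2*, described above, differed in CAF-vec 1 alone. A match is a description of the letters and not a measured site.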

How the data were processed

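RNA from 2 CAF-vec and 3 CAF-200 samples was sequenced by the authors as stranded mRNA libraries (paired-end, Illumina NovaSeq). The submitters' processing notes name FastQC, cutadapt, Trimmomatic, STAR, RSEM and edgeR, and the builds GRCm38 and mm10, without versions. The authors deposited 1 table of CPM values named for TMM scaling, and all 5 columns were used. Whole counts could not be recovered from it, so no count test was run, and a scaled share can move when other genes of the library move.

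A gene was tested if 2 or more samples reached 0.5 CPM. The groups were compared on the log2(CPM + 0.5) scale by limma 3.58.1 (R 4.3.3, eBayes with a variance trend), checked first on simulated data. The simulated spread was taken from the CAF-200 samples alone, so the check did not cover the wider spread of the CAF-vec samples. Single sums per sample were compared with two-sided exact permutation tests. Symbols, coordinates and 3′-UTRs came from GENCODE M21 (GRCm38), and similar genes from BLAST 2.17.0. The median length of a gene's protein-coding transcripts gave CPM per kilobase and GC content.

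Members and gene lists were chosen with earlier results of these data known. Values were given by rule for the 2 largest falls and rises of complexes I, III, IV and V, all of complex II, paralogs, and, of the other lists, genes past both thresholds of the study (adjusted *p* under 0.01, log2 ratio beyond 1) or with the largest fall or rise. One gene that this rule names is not reported here. Any other gene named was picked with its values in view. Alternatives were pseudocounts of 1 and 0.1, other filters and scalings, no variance trend, an adjusted *p* of 0.01, a replicate block and each sample left out. The scaling without mitochondrially encoded genes was added after seeing the data.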

Additional observations from a re-analysis of the deposited data

How the results depend on the processing

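With 5 samples of unknown depth, 2 of them dissimilar controls, the counts of calls depended on the samples used. At an adjusted *p* under 0.01, 0 genes of oxidative phosphorylation were lower and 0 higher. With each sample left out in turn, the number lower ranged from 0 to 31, the number higher from 0 to 33, the number past both thresholds of the study from 0 to 13, and the median log2 ratio from -0.042 to 0.024. That median was 0.066 after quantile normalization, 0.076 after centring on each sample's median and 0.031 after rescaling without the mitochondrially encoded genes, while the median of all genes moved from -0.094 to -0.016, 0.0027 and -0.045. Under the same 3 scalings *Sdha* turned from -0.05 to 0.062, 0.047 and 0.0027, and *Atp5g3* from -0.0043 to 0.032, 0.092 and 0.048. With samples left out, the log2 ratio ranged from -0.47 to 0.18 for *Uqcr11*, from -0.11 to 2.30 for *Atp5g2*, from -0.13 to 0.12 for *Atp5g3*, from -0.044 to 0.52 for *Cox6a2*, from -0.40 to 0.028 for *Cox4i1* and from -0.077 to 1.04 for *Cox8a*, all genes that had not passed. The pseudocounts changed no call among the 37 genes of oxidative phosphorylation for which they were compared. The cause of these moves was not tested.

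The groups share replicate numbers 1 and 2. The deviations of same-numbered samples from their group means correlated at 0.25 and 0.13 over all genes, and at 0.12 between CAF-vec 2 and CAF-200 3, whose numbers differ. With 2 CAF-vec samples the deviations of one are the opposite of the other's, so these values depend on each other. They cannot decide whether a number pairs samples, and no source used here says that it does. With the replicate number as a block, 1 gene was lower and 0 were higher (8 and 12 at an unadjusted *p* under 0.05, limma), against 12.2% of all genes, and *Cox6a2* was at -0.044.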

Other observations

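The ribosomal proteins, other large sets of short and highly expressed transcripts, were set beside the genes of oxidative phosphorylation as a description. Of 78 mitochondrial ribosomal proteins, 2 were lower and 5 higher in CAF-200 (8.97%), and the median log2 ratio was 0.10. Of 94 cytosolic ribosomal proteins tested, 2 were lower and 2 higher (4.26%), with a median of 0.10 as well. The share of the 88 genes of oxidative phosphorylation that passed (13.6%) lies between these shares and that of all genes tested (30.5%).

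Promoter windows of 250 bases before to 50 bases after the start (RefSeq, GRCm38.p6) matched 76 of the 93 genes. The consensus palindrome of nuclear respiratory factor 1 (NRF1), which regulates many genes for respiration, was found in 7 of them (9.21%) against 1.07% of 27025 genes. For the motifs the background is every gene with a promoter window, expressed in these cells or not, and so unlike the background of genes tested. The ETS motif CCGGAAG, searched on both strands, was found in 18 (23.7%) against 9.93%, and the YY1 motif, also searched on both strands, in 5 (6.58%) against 0.755%. The letters searched for NRF1 are in capitals in the first 4 windows below and those for YY1 in the last, all from genes described above, because they show what was searched.
Atp5g2: gctccggccGCGCATGCGCagagccttc
Cox6a1: aggaacgggGCGCATGCGCgctctcgct
Ndufa11: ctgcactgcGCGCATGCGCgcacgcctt
Ndufaf4: cagatgtctGCGCATGCGCctgtgcgga
Ndufs7: ccgaggccAAGATGGCGGCgctggcgg

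The 7 genes with the NRF1 motif had a median log2 ratio of 0.11, and those without it of 0.031, while the 18 genes with the ETS motif had one of -0.12, against 0.073 without it, and the 5 with the YY1 motif 0.067, against 0.031. Among the genes with the NRF1 motif, *Ndufa11* fell and *Ndufaf4* rose in CAF-200. A match gives the letters and not a bound site. *Nrf1* itself was 24.6 and 27.0 CPM in CAF-vec and 28.8, 26.8 and 27.9 CPM in CAF-200, with overlapping groups.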
